A study of Homo sapiens with 60 samples.

Results

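The heat shock chaperone network of HepG2 cells was followed across herbal extracts through 38 genes of the 60675 rows of the count table. The genes were taken by name: the HSP70, HSP110, HSP90 and small heat shock protein genes, the mitochondrial chaperones, J-domain proteins, co-chaperones of HSP70 and HSP90, and the heat shock factors HSF1 and HSF2. The choice was made with earlier results of these data known, so it may not be independent of the counts below. All 38 were found in the table, and all 38 passed the filter on low counts. HepG2 is a human hepatocellular carcinoma line, so the samples hold 1 cultured line and not liver tissue. Cells were exposed for 24 h and their mRNA was sequenced. Of the 60 libraries, 3 came from vehicle cultures with DMSO, at 0.1% by the sample labels and 2% by the series text. The others came from 8 extracts at 20 (Low), 100 (Medium) and 500 (High) μg/mL, with no DMSO percentage recorded for them here. Sibjeondaebo-tang (SDT) and Palmul-tang (PMT) were water extracts. The ethanol extracts were Poria Cocos (Poria), Atractylodis Rhizoma (Atractylodis), Glycyrrhizae Radix (Glycyrrhiza), Panax Ginseng (Ginseng), Angelicae Gigantis Radix (Angelica) and Paeoniae Radix (Paeonia). Each dose was sequenced in 3 libraries, except that PMT had 2. Angelica and Paeonia had only 1 and were not tested.

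Cytosolic HSP70 proteins bind exposed hydrophobic stretches of unfolded chains in a cycle driven by ATP. J-domain proteins deliver substrates and stimulate the ATPase, and HSP110 and BAG proteins release the nucleotide, while HSP90 acts later, on near-native clients, with its own co-chaperones. When unfolded protein accumulates, HSF1 is released from chaperone restraint, trimerises and binds heat shock elements, which are inverted repeats of a short GAA unit in the promoters of chaperone genes.

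Total counts ran from 19057230 to 33233215 per library. Hepatocyte markers were high throughout, with ALB between 6811 and 11630 CPM (a count as a share of the TMM-scaled library size). Of markers of other cell types, the leukocyte gene PTPRC was at 0 in all libraries, COL1A2, DCN and KDR had a median of 0, and PECAM1, VWF and CD14 had medians of 1.75, 0.656 and 2.89 CPM. The fibroblast gene PDGFRB was between 2.31 and 17.7 CPM, and CD68 between 50.5 and 161 CPM. The sample descriptions carry a set code that differs between vehicle (C1), SDT and PMT (8), Poria and Atractylodis (9), Glycyrrhiza and Ginseng (10), and Angelica and Paeonia (11). Treatment and set code therefore cannot be told apart in comparisons with vehicle, whereas the doses of an extract share a code. The labels do not say whether replicates were separate cultures, so the p-values speak to library-to-library spread alone, which may be technical. A gene was called at a Benjamini-Hochberg adjusted p under 0.05 in edgeR's quasi-likelihood test over 16284 genes. CPM is a share of a library, so fewer cells and less RNA per cell cannot be told apart in it.

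Heat shock elements were looked for in the promoters because many of these genes are textbook targets of HSF1. RefSeq windows on GRCh38.p14 held 34 of the 38 genes. The 250 bases before each start were searched on both strands for a run of 3 units, GAANNTTCNNGAA or TTCNNGAANNTTC, and for a run of 2 units, GAANNTTC or TTCNNGAA, which every longer run also contains. A run of 3 units was found in 6 of 34 genes (17.6%), against 152 of 27305 genes (0.557%) in the whole table. A run of 2 units was found in 17 of 34 genes (50%), against 13.96% of all genes. A match describes letters in a window and is not a measured binding site. The 6 promoters with 3 units are printed because they hold the longest match, which is in capitals, 5′ to 3′ on the gene's strand. For HSPA8 and HSP90AB1 only the match nearest the start is printed, and another run of 3 units begins at positions -230 and -165.
HSPA8 (chr11:123062154-123062216, minus strand): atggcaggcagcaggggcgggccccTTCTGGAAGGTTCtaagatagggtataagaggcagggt
HSP90AA1 (chr14:102087095-102087157, minus strand): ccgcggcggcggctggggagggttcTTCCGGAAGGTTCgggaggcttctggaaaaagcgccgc
HSP90AB1 (chr6:44247806-44247868, plus strand): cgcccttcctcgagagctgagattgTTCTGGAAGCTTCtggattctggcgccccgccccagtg
HSPD1 (chr2:197500043-197500090, minus strand): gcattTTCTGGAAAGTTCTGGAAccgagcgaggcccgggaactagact
CHORDC1 (chr11:90223062-90223134, minus strand): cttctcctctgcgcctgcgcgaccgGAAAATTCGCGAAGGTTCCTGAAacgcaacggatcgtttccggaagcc
DNAJB6 (chr7:157336848-157336910, plus strand): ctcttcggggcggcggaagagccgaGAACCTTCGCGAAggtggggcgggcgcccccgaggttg

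DNAJA1 is printed for contrast, since it fell under Glycyrrhiza (below) and held a run of 2 units but none of 3. HSPA1A and HSPA1B, added after their values were seen, are near-identical genes whose upstream windows were equal at 235 of 249 aligned bases (94.4%). The HSPA1A stretch is also upstream of HSPA1L, which lies on the other strand.
DNAJA1 (chr9:33025050-33025107, plus strand): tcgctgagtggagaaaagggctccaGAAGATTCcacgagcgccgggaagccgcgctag
HSPA1A (chr6:31815412-31815469, plus strand): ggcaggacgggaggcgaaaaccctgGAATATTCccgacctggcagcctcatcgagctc
HSPA1B (chr6:31827608-31827665, plus strand): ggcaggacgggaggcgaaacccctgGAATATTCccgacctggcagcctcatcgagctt

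In vehicle cells the level per length of exon (CPM per kb) spanned a wide range. HSP90AB1, the constitutive HSP90, was highest at 778.7 CPM per kb, followed by HSPD1, the mitochondrial chaperonin HSP60, at 447.8 CPM per kb. HSP90AA1, the inducible HSP90, stood at 297.5 CPM per kb, HSPA8, the constitutive cytosolic HSP70, at 220.1, and HSPE1, the co-chaperonin of HSPD1, at 190.7. The stress-inducible HSP70 genes HSPA1B and HSPA1A stood at 30.4 and 23.1 CPM per kb. HSPA1L, HSPB8, HSPA2 and DNAJA4 were lowest, with vehicle means under 1 CPM, and their changes carry large errors.

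The Low libraries, at 20 μg/mL, differed from vehicle. They differ from it in treatment, set code and DMSO record at once, which cannot be told apart. The shift was of similar size in the 6 extracts taken singly. Log2 changes ran from 0.94 to 1.17 for HSPA1A, 0.51 to 0.70 for HSPA8 and -0.28 to -0.14 for PTGES3. Over the mean of the 6 Low groups against Vehicle, 17 members were higher and 5 lower, where 20.4% of all genes were called higher and 21.7% lower. Leaving out any 1 library of these groups gave 17 to 23 members called, the fewest without the Vehicle library numbered 3. The median log2 change was 0.10 over the members and -0.007 over all genes. The inducible HSP70 genes, HSPA8, the J-domain gene DNAJB4, BAG3 and CHORDC1 were among the higher, and HSF2, HSPA14, PTGES3, HSPD1 and HSP90AB1 were the lower. The share of mitochondrially encoded counts was 13.3% to 15.2% in vehicle and 15.1% to 21.8% in the Low libraries. With those genes left out of the library sizes, 23 members were called.

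**Figure D1:**
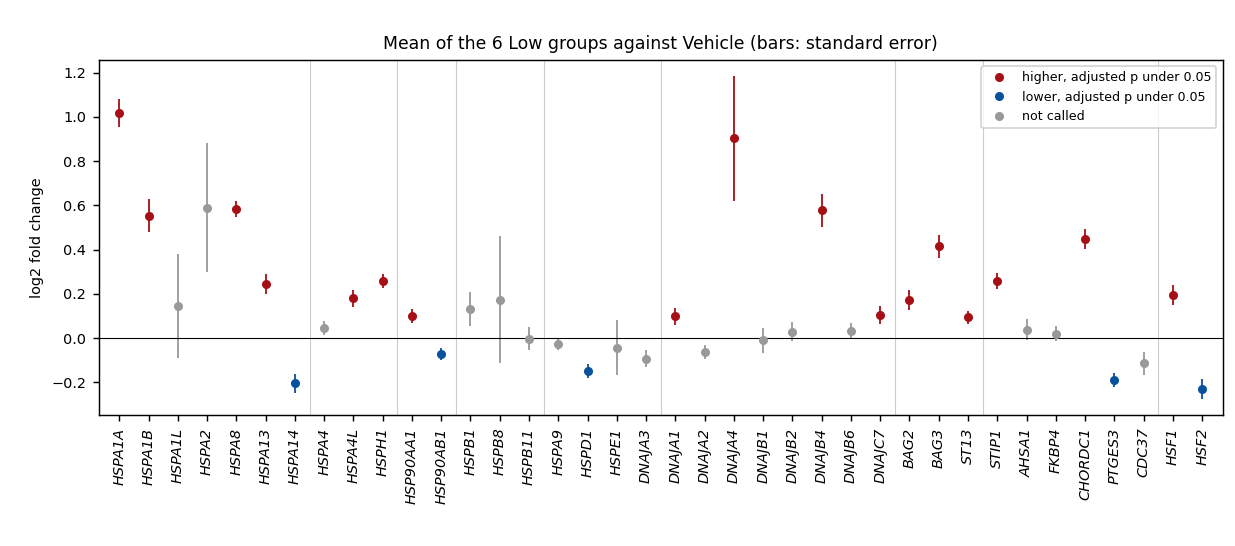
Log2 fold change (y axis) of the mean of the 6 Low groups against Vehicle for the 38 genes (x axis, by role); points are the fitted values, bars the standard errors, and red, blue and grey mark called higher, called lower and not called. HSPA1A, at 1.02, stands highest.

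HSPA1A (chr6:31815464-31817946) was at 63.3, 52.4 and 56.1 CPM in the 3 vehicle libraries and 102 to 136 CPM (median 115) in the 17 Low libraries. The ranges did not overlap, and the log2 change was 1.02 (SE 0.064, adjusted p = 6.44e-16). HSPA1B (chr6:31827735-31830255) was at 86.4, 77.9 and 65.4 CPM in vehicle and 96.9 to 123 CPM (median 113) in the Low libraries. Its ranges were also separate, with a log2 change of 0.55 (SE 0.075, adjusted p = 9.04e-08). Reads from these near-identical copies could be split between them in the authors' counting. Summed over the pair, the log2 change was 0.77 (SE 0.059, adjusted p = 5.39e-13).

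HSPA8 (chr11:123057489-123063230) was at 1153, 1044 and 1005 CPM in vehicle and 1473 to 1737 CPM (median 1587) in the Low libraries. Every Low library was above vehicle, with a log2 change of 0.58 (SE 0.034, adjusted p = 1.01e-16). HSPH1 (chr13:31134974-31162388), an HSP110 that exchanges the nucleotide of HSP70, was at 109, 102 and 99.9 CPM in vehicle and 110 to 136 CPM (median 124) in the Low libraries. Its ranges were close but separate, with a log2 change of 0.26 (SE 0.032, adjusted p = 2.04e-08). HSPA4L, of the same HSP110 family, was higher by 0.18 on the log2 scale, and HSPA4 was not called. HSPA13, a short HSP70 associated with microsomes, was higher by 0.24 (SE 0.046). HSPA14, an HSP70 that works at the ribosome, was at 31.2, 31.1 and 30.6 CPM in vehicle and 24.5 to 30.0 CPM (median 26.8) in the Low libraries. All Low libraries were below vehicle there, with a log2 change of -0.20 (SE 0.044, adjusted p = 0.000214).

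Of the J-domain genes, DNAJB4 (chr1:77979175-78017964) was at 6.86, 5.87 and 6.20 CPM in vehicle and 7.76 to 11.0 CPM (median 9.39) in the Low libraries. The ranges were separate, with a log2 change of 0.58 (SE 0.074, adjusted p = 3.27e-08). DNAJB1, a main partner of inducible HSP70, was at 139, 128 and 124 CPM in vehicle and 122 to 148 CPM (median 128) in the Low libraries, overlapped and was not called. DNAJA4 was at 0.273, 0.185 and 0.136 CPM in vehicle and 0.222 to 0.611 CPM (median 0.353) in the Low libraries. It was called at 0.90 (SE 0.28, adjusted p = 0.0163) on the log2 scale with overlapping ranges, at a level of few reads. BAG3, an exchange factor of HSP70 linked to autophagy, was at 34.2, 33.3 and 32.5 CPM in vehicle and 38.6 to 47.5 CPM (median 45.5) in the Low libraries. All 17 were above vehicle, with a log2 change of 0.41 (SE 0.053, adjusted p = 2.77e-08). BAG2 and ST13, also partners of HSP70, were higher by 0.17 and 0.094.

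The HSP90 genes moved less, and in opposite directions. HSP90AA1 was at 1581, 1574 and 1529 CPM in vehicle and 1541 to 1770 CPM (median 1690) in the Low libraries, a log2 change of 0.10 (SE 0.032, adjusted p = 0.0107). HSP90AB1 was at 2259, 2358 and 2345 CPM in vehicle and 2106 to 2346 CPM (median 2189) in the Low libraries, a log2 change of -0.073 (SE 0.027, adjusted p = 0.0252). Both genes overlapped with vehicle. CHORDC1 and STIP1, HSP90 co-chaperones, were higher by 0.45 (SE 0.046) and 0.26 (SE 0.037) on the log2 scale. PTGES3, the p23 protein that stabilises the closed form of HSP90, was at 309, 294 and 282 CPM in vehicle and 240.4 to 278 CPM (median 260.2) in the Low libraries. It was below vehicle in every Low library, with a log2 change of -0.19 (SE 0.031, adjusted p = 3.43e-06).

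Of the mitochondrial chaperones, HSPD1 was at 1928, 1894 and 1880 CPM in vehicle and 1551 to 1853 CPM (median 1711) in the Low libraries. All Low libraries were below vehicle, with a log2 change of -0.15 (SE 0.033, adjusted p = 0.000306). HSPE1 was at 299, 404 and 428 CPM in vehicle and 307 to 439 CPM (median 367) in the Low libraries, overlapped and was not called. Exons of HSPD1 and HSPE1 overlap by 281 bp on opposite strands. The strand setting of the counting is not given in the sources used here, so reads there could go to either gene. HSPB1, the small heat shock protein HSP27, was at 53.2, 56.0 and 55.4 CPM in vehicle and 48.3 to 71.9 CPM (median 59.4) in the Low libraries, and was not called.

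The RNAs of the factors went in opposite directions. HSF1 was at 50.9, 53.0 and 52.3 CPM in vehicle and 56.2 to 68.0 CPM (median 59.1) in the Low libraries. All Low libraries were above vehicle, with a log2 change of 0.19 (SE 0.047, adjusted p = 0.000743). HSF2 was at 23.8, 20.6 and 20.8 CPM in vehicle and 16.6 to 21.2 CPM (median 18.5) in the Low libraries, which overlapped, with a log2 change of -0.23 (SE 0.045, adjusted p = 4.91e-05).

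Some genes stood apart from vehicle in every treated library. Over the 51 treated libraries of the 6 replicated extracts, HSPA1A, HSPA13, DNAJB4, BAG2, BAG3, CHORDC1 and HSF1 were above all 3 vehicle libraries in 51, as were 2.87% of all genes tested. HSF2 was below the vehicle libraries in 50, and 5.97% of all genes were below in at least 50. Of the 18 comparisons of an extract and dose with Vehicle, which share the vehicle libraries, HSPA1A, HSPA13, DNAJB4 and BAG3 were called higher in 18, beside 2.71% of all genes. HSF2 was called lower in 16 and PTGES3 in 14, where 7.04% of all genes were called lower in at least 16 and 9.57% in at least 14. DNAJB6, CDC37 and HSPA2 were called in 0 of 18 by edgeR's test, as were 15.1% of all genes.

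At High against Vehicle, SDT had 14 members higher and 5 lower (16.9% and 17.3% of all genes). PMT had 15 and 4 (14.8% and 14.5% of all genes), and 11 in all without its High library numbered 2. Poria had 20 and 4 (25.8% and 25.5% of all genes). Atractylodis had 20 and 1 (16.8% and 17.1% of all genes), and Ginseng 17 and 2 (17.8% and 18.5%). Glycyrrhiza had 11 higher and 17 lower (30.7% and 30.6% of all genes), the reverse balance of the other 5 extracts. HSPA1A was higher than vehicle at all 6 High groups, by 0.62 on the log2 scale under Glycyrrhiza and by 0.88 to 1.02 under the others. HSPA8 was higher by 0.66 to 0.95 under those 5 and lower under Glycyrrhiza, at -0.15 (SE 0.043).

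**Figure D2:**
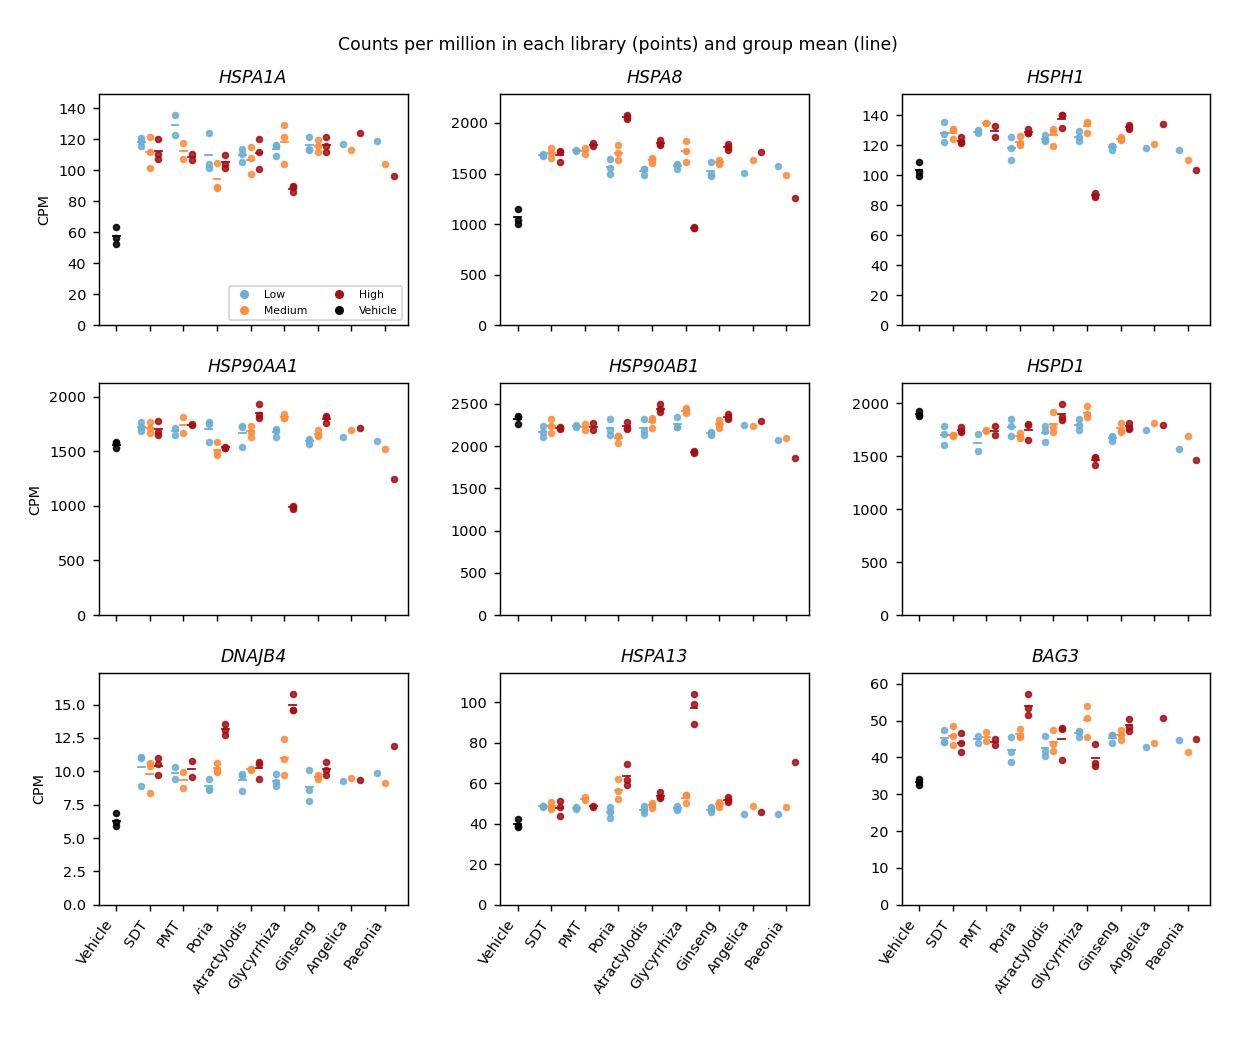
CPM (y axis, from 0) of 9 genes in each library by extract (x axis); points are libraries, lines are means of groups with more than 1 library, and colours mark dose. HSPA1A is above vehicle in every treated library of the 6 replicated extracts, and HSPA8 at Glycyrrhiza High is below vehicle.

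Within an extract the doses share a set code, and Glycyrrhiza gave the most calls from Low to High. There 24 members fell and 7 rose, where 27.7% of all genes were called lower and 28.6% higher. The median log2 change was -0.25 over the members and 0.0089 over all genes. The falls took in 5 of 7 genes grouped with cytosolic HSP70, 3 of 3 of the HSP110 family, 2 of 2 HSP90 genes and 5 of 6 HSP90 co-chaperones. Leaving out any 1 library of the groups compared gave 30 to 31 members called. The 8 hepatocyte markers summed to 58870 to 59820 CPM at Low and 43280 to 46020 CPM at High. The 4 leukocyte markers, of which PTPRC was at 0, summed to 60.1 to 68.4 CPM at Low and 158 to 165 CPM at High, of which CD68 alone gave 57.1 to 65.5 and 155 to 161. The 5 fibroblast markers summed to 6.13 to 6.67 CPM at Low and 2.44 to 2.88 CPM at High, and the 4 endothelial markers to 2.62 to 2.98 and 1.66 to 2.24 CPM. Mitochondrially encoded counts were 15.1% to 17.0% at Low and 17.8% to 18.4% at High. The part of the marker sums in the result was not tested, and with mitochondrially encoded genes left out of the library sizes 31 members were called.

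**Figure D3:**
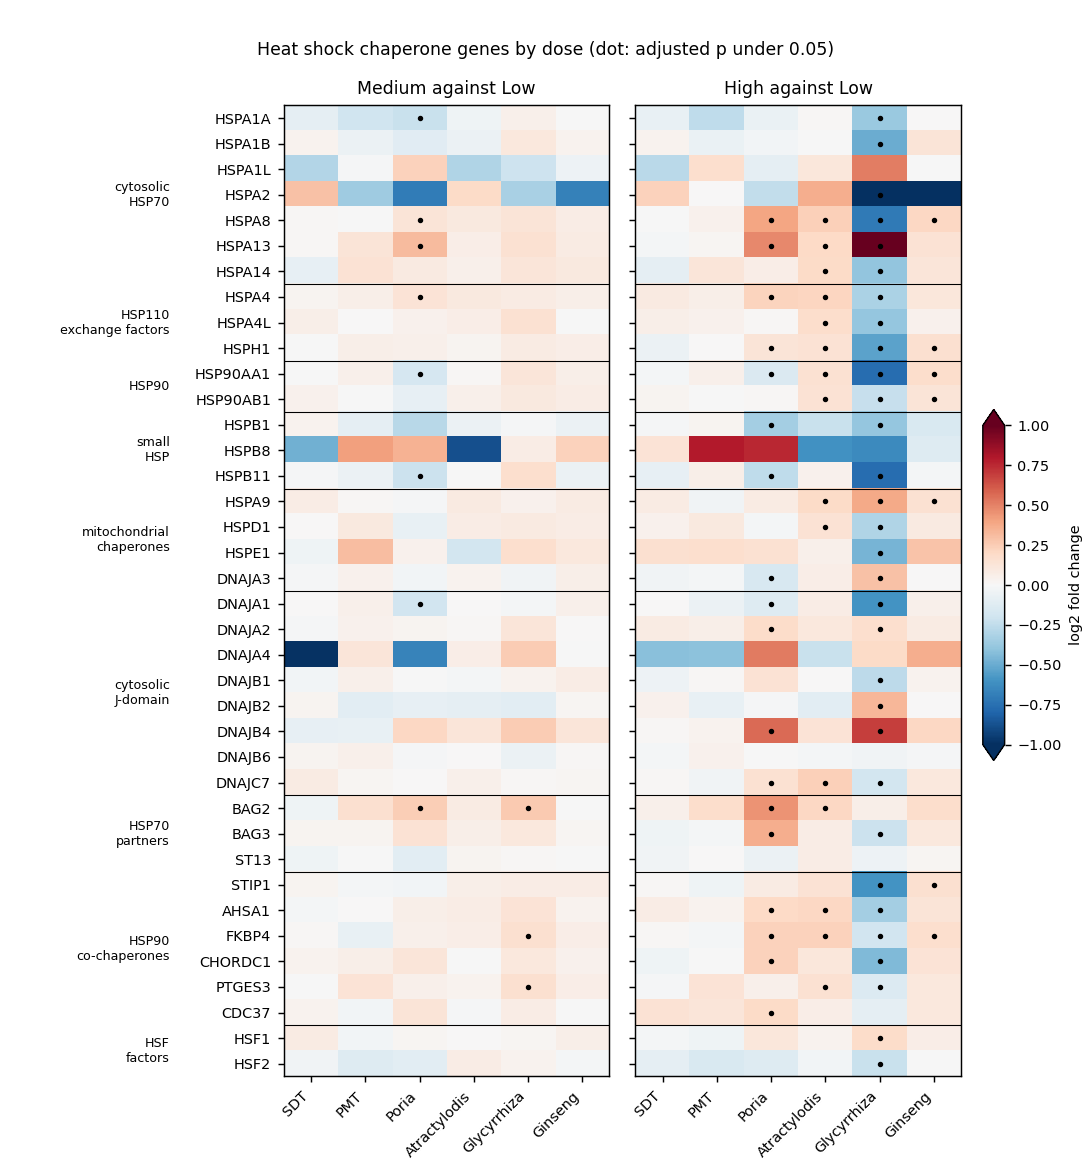
Log2 fold change (colour, clipped at 1 in both directions) of Medium against Low and High against Low for 38 genes (rows, by role) in 6 extracts (columns); dots mark adjusted p under 0.05 in edgeR's quasi-likelihood test. Glycyrrhiza at High holds 24 called falls, and SDT and PMT hold no called gene.

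HSP90AA1 (chr14:102080738-102139699) was at 1686, 1704 and 1628 CPM at Low, 1804, 1807 and 1840 at Medium and 992, 995 and 974 at High. Every High library was below Low and below vehicle, with a log2 change from Low to High of -0.76 (SE 0.042, adjusted p = 1.93e-20). HSP90AB1 (chr6:44246166-44253888) was at 2346, 2223 and 2229 CPM at Low, 2452, 2421 and 2385 at Medium and 1912, 1929 and 1943 at High. Its groups did not overlap either, with a log2 change of -0.23 (SE 0.035, adjusted p = 1.82e-07). Both promoters, printed above, hold a run of 3 units.

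HSPA8 was at 1543, 1593 and 1587 CPM at Low, 1723, 1618 and 1824 at Medium and 957, 974 and 964 at High. It was above Low at Medium and below both Low and vehicle at High, with a log2 change from Low to High of -0.71 (SE 0.043, adjusted p = 6.72e-19). HSPA1A was at 109, 116 and 115 CPM at Low, 122, 104 and 129 at Medium and 89.1, 85.8 and 89.5 at High. Its High libraries were below Low yet above vehicle, with a log2 change of -0.37 (SE 0.076, adjusted p = 5.37e-05). HSPA1B was at 117, 113 and 123 CPM at Low and 79.8, 76.9 and 95.2 at High, a log2 change of -0.49 (SE 0.093, adjusted p = 1.32e-05). Summed over the pair the change was -0.43 (SE 0.072, adjusted p = 1.65e-06). HSPA14 fell by 0.40 on the log2 scale. HSPA2 was at 0.445, 0.371 and 0.311 CPM at Low and 0.0671, 0.177 and 0.131 at High, a level of few reads, with a log2 change of -1.54 (SE 0.40, adjusted p = 0.00176).

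HSPA13 (chr21:14371115-14383484) went the other way. It was at 48.9, 46.7 and 47.3 CPM at Low, 54.1, 54.3 and 50.5 at Medium and 99.2, 104 and 89.1 at High. Both higher doses were above Low, and the log2 change from Low to High was 1.04 (SE 0.057, adjusted p = 1.98e-20). HSPH1 was at 129, 125 and 123 CPM at Low, 136, 135 and 128 at Medium and 85.6, 88.6 and 86.2 at High. It fell below both Low and vehicle, with a log2 change of -0.53 (SE 0.042, adjusted p = 3.13e-15). HSPA4 and HSPA4L fell by 0.31 and 0.39.

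Of the 8 J-domain genes of the cytosol, 3 were higher and 3 lower, a split near that of all genes (28.6% higher and 27.7% lower). DNAJB4 was at 8.89, 9.22 and 9.81 CPM at Low, 10.9, 12.4 and 9.76 at Medium and 14.6, 15.8 and 14.6 at High, a log2 change of 0.69 (SE 0.084, adjusted p = 1.41e-09). Its exons share 78 bp with GIPC2 on the same strand. DNAJA1, whose promoter is printed for contrast, changed by -0.59 (SE 0.05, adjusted p = 4.19e-14). DNAJB1 was at 127, 132 and 128 CPM at Low and 106, 107 and 108 at High, without overlap, a log2 change of -0.26 (SE 0.073, adjusted p = 0.00189). DNAJB2, which binds ubiquitin chains, rose by 0.33 and DNAJA2 by 0.17, and DNAJC7 fell by 0.19. DNAJA4 and DNAJB6 were not called, and the DNAJB6 promoter holds a run of 3 units.

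Of the mitochondrial chaperones, HSPD1 was at 1853, 1794 and 1753 CPM at Low and 1414, 1482 and 1492 at High, without overlap, a log2 change of -0.30 (SE 0.043, adjusted p = 8.84e-08). HSPE1 was at 362, 406 and 361 CPM at Low and 259, 222 and 337 at High, a log2 change of -0.47 (SE 0.16, adjusted p = 0.014). The chaperonin and its co-chaperonin thus both fell, while the matrix HSP70 did not. That gene, HSPA9 (mortalin), was at 428, 422 and 418 CPM at Low and 536, 554 and 563 at High, a log2 change of 0.38 (SE 0.037, adjusted p = 2.27e-12). DNAJA3, its J-domain partner, rose by 0.30.

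Of the small heat shock proteins, HSPB1 was at 56.8, 59.8 and 61.8 CPM at Low and 47.4, 43.7 and 45.2 at High, a log2 change of -0.39 (SE 0.1, adjusted p = 0.000872). HSPB11, now named IFT25 and a subunit of intraflagellar transport, was at 21.6, 21.0 and 19.6 CPM at Low and 12.3, 11.7 and 12.8 at High, a log2 change of -0.76 (SE 0.073, adjusted p = 2.54e-12). Neither gene's groups overlapped, and HSPB8 was not called. BAG3 was at 45.6, 47.1 and 46.9 CPM at Low and 43.7, 38.5 and 37.6 at High, a log2 change of -0.22 (SE 0.066, adjusted p = 0.00423), and stayed above vehicle. Of the HSP90 co-chaperones, STIP1, which links HSP70 to HSP90, fell by 0.60, CHORDC1 by 0.44, AHSA1, which stimulates the HSP90 ATPase, by 0.34, FKBP4 by 0.19 and PTGES3 by 0.14. CDC37, which brings kinases to HSP90, and the HSP70 partners BAG2 and ST13 were not called.

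HSF1 was at 58.8, 59.3 and 62.5 CPM at Low and 68.6, 69.3 and 66.8 at High, a log2 change of 0.18 (SE 0.059, adjusted p = 0.00807). HSF2 was at 18.5, 17.1 and 16.7 CPM at Low and 15.6, 15.1 and 13.8 at High, a log2 change of -0.23 (SE 0.062, adjusted p = 0.00163). Neither overlapped, so HSF1 RNA was higher where HSPA8, HSP90AA1, HSPH1 and DNAJB1 RNA was lower. Exons of HSF1 overlap those of DGAT1, and exons of DNAJB1 those of TECR, on the opposite strand.

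At Glycyrrhiza Medium against Low, 3 members were called higher (BAG2, FKBP4 and PTGES3) and 0 lower, where 1.71% of all genes were called higher and 1.79% lower. Without the Low library numbered 3 the count was 1. Of the 24 that fell at High, only FKBP4 and PTGES3 were called at Medium. Fitted Medium values were above Low in 31 of 38 members, called or not, and in 50.3% of all genes. Among genes that fell at High they were above Low in 21 of 24 members and in 42.2% of all such genes, all of which share the Low libraries between both comparisons.

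Under Poria more members rose than fell. From Low to High, 13 members rose and 5 fell, where 20.1% of all genes were called higher and 18.4% lower. With only the Poria High and Low groups in the fit, 8 members were called. DNAJB4 was at 8.64, 9.39 and 8.59 CPM at Low and 13.6, 13.1 and 12.8 at High, a log2 change of 0.57 (SE 0.091, adjusted p = 1.94e-06). HSPA13 was at 42.8, 48.3 and 46.0 CPM at Low and 59.3, 61.9 and 69.8 at High, a log2 change of 0.48 (SE 0.059, adjusted p = 5.80e-09). BAG2 was at 47.1, 50.1 and 51.4 CPM at Low and 70.3, 65.1 and 67.6 at High, a log2 change of 0.45 (SE 0.058, adjusted p = 1.46e-08). None of these groups overlapped, and 42.7% of the BAG2 exon length lies opposite RAB23 exons.

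HSPA8 was at 1493, 1554 and 1642 CPM at Poria Low and 2035, 2082 and 2059 at High, a log2 change of 0.40 (SE 0.043, adjusted p = 1.83e-10). BAG3 was at 45.5, 38.6 and 41.6 CPM at Low and 57.2, 53.6 and 51.5 at High, a log2 change of 0.37 (SE 0.067, adjusted p = 1.76e-05). In both, every High library was above every Low library. HSPH1 rose by 0.13, and FKBP4, CHORDC1, AHSA1 and CDC37 rose by 0.19 to 0.23. HSP90AA1 was at 1586, 1746 and 1770 CPM at Low and 1532, 1542 and 1532 at High, below Low throughout, with a log2 change of -0.15 (SE 0.041, adjusted p = 0.00373). HSPA8 and HSP90AA1, which fell together under Glycyrrhiza, thus moved apart under Poria.

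HSPB1, HSPB11, DNAJA3 and DNAJA1 also fell under Poria. HSPB1 was at 56.0, 48.3 and 71.2 CPM at Low and 53.0, 46.6 and 39.8 at High, with overlapping groups and a log2 change of -0.34 (SE 0.10, adjusted p = 0.00765). HSPB11 was at 25.3, 22.5 and 25.4 CPM at Low and 20.6, 20.3 and 20.4 at High, a log2 change of -0.25 (SE 0.072, adjusted p = 0.00407). DNAJA3 was at 67.4, 71.2 and 71.8 CPM at Low and 58.0, 67.3 and 62.9 at High, a log2 change of -0.16 (SE 0.053, adjusted p = 0.0124). DNAJA1 fell by 0.13. HSPA1A, HSPA1B, HSP90AB1, HSPD1, HSPE1, DNAJB1, HSF1 and HSF2 were not called. The hepatocyte markers summed to 58620 to 62100 CPM at Low and 66000 to 68430 CPM at High, and the leukocyte markers, mostly CD68, to 59.1 to 64.6 and 91.2 to 109 CPM. The fibroblast markers, mostly PDGFRB, summed to 6.30 to 9.07 CPM at Low and 10.9 to 11.9 CPM at High, and mitochondrially encoded counts were 15.8% to 17.5% and 19.7% to 22.3%. The part of the marker sums in the result was not tested, and with mitochondrially encoded genes left out of the library sizes 18 members were called.

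At Poria Medium against Low, 4 members were higher (HSPA13, BAG2, HSPA8 and HSPA4) and 4 lower (HSPA1A, HSPB11, DNAJA1 and HSP90AA1), where 8.27% of all genes were called higher and 7.26% lower. HSPA1A was at 102, 104 and 124 CPM at Low and 88.8, 88.8 and 104 at Medium, with overlap, a log2 change of -0.23 (SE 0.077, adjusted p = 0.0374). The count of 8 was 5 without the Medium library numbered 2, the Medium library numbered 3 or the Low library numbered 3, and 1 with only the groups compared in the fit.

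Atractylodis at High against Low had 15 members higher and 0 lower, where 3.4% of all genes were called higher and 3.03% lower. HSPA8 was at 1482, 1548 and 1544 CPM at Low and 1783, 1791 and 1835 at High, a log2 change of 0.24 (SE 0.042, adjusted p = 0.00017). DNAJC7, a J-domain protein that also binds HSP90, was at 88.03, 82.7 and 82.9 CPM at Low and 97.9, 104 and 96.9 at High, a log2 change of 0.24 (SE 0.053, adjusted p = 0.0026). FKBP4, an immunophilin of steroid receptor complexes, was at 86.0, 86.1 and 87.02 CPM at Low and 102, 101 and 101 at High, a log2 change of 0.23 (SE 0.043, adjusted p = 0.000288). In all 3 genes the groups did not overlap. Exons of DNAJC7 overlap those of CNP by 401 bp and those of NKIRAS2 by 484 bp, on the opposite strand.

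Both HSP90 genes rose under Atractylodis. HSP90AA1 was at 1541, 1725 and 1729 CPM at Low and 1828, 1929 and 1805 at High, a log2 change of 0.16 (SE 0.041, adjusted p = 0.0148). HSP90AB1 was at 2134, 2174 and 2320 CPM at Low and 2435, 2493 and 2400 at High, a log2 change of 0.14 (SE 0.035, adjusted p = 0.00588). HSPD1 and HSPA9, of the mitochondria, rose by 0.14 and 0.19, and the 3 genes of the HSP110 family by 0.14 to 0.21. HSPA1A was at 110.4, 106 and 113 CPM at Low and 112, 101 and 119.8 at High and was not called, nor were HSPA1B, DNAJB1, DNAJB4, HSPE1, HSPB1, BAG3, HSF1 and HSF2. The count of 15 was 8 without the Low library numbered 1, and 9 without the Low library numbered 3 or the High library numbered 2. It was 3 with only the groups compared in the fit.

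Ginseng at High against Low had 7 members higher and 0 lower, where 2.63% of all genes were called higher and 3.03% lower. HSPA8 was at 1473, 1497 and 1617 CPM at Low and 1728, 1791 and 1767 at High, a log2 change of 0.20 (SE 0.042, adjusted p = 0.00151). HSP90AA1 was at 1611, 1571 and 1602 CPM at Low and 1763, 1819 and 1810 at High, a log2 change of 0.17 (SE 0.041, adjusted p = 0.0069). FKBP4 was at 90.9, 90.7 and 87.3 CPM at Low and 101, 99.4 and 102 at High, a log2 change of 0.17 (SE 0.043, adjusted p = 0.0105). High was above Low without overlap in all 3, and STIP1, HSPH1, HSPA9 and HSP90AB1 rose by 0.13 to 0.16. The count of 7 was 3 without the High library numbered 3 and 4 without the Low library numbered 3.

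SDT and PMT had no member called by edgeR's test at High or Medium against Low, with the filter on low counts. SDT at High against Low had 0 members higher and 0 lower (0.51% and 0.553% of all genes), and PMT 0 and 0 (0.203% and 0.313%). In edgeR's test 3 members in each had an unadjusted p under 0.05, beside 11% and 9.16% of all genes, and DESeq2 called 0 in each. HSPA8 was at 1696, 1677 and 1686 CPM at SDT Low and 1610, 1713 and 1724 at SDT High, with overlap. HSPA1A was at 120.5, 116 and 119 CPM at SDT Low and 107, 110.2 and 119.9 at SDT High, with overlap. SDT High against PMT High had 0 members higher and 0 lower in edgeR's test (0% and 0% of all genes), 0 with an unadjusted p under 0.05 (5.36% of all genes) and 0 by DESeq2.

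At Medium against Low, edgeR called 0 members for SDT (0.00614% of all genes higher and 0% lower), PMT (0% and 0%), Atractylodis (0% and 0%) and Ginseng (0% and 0%). Unadjusted p-values were under 0.05 in 2 members for SDT, 3 for PMT, 4 for Atractylodis and 2 for Ginseng, beside 4.83%, 5.17%, 4.36% and 4.43% of all genes, and DESeq2 called 0 in each.

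Extracts of a shared set code were compared directly at High. Glycyrrhiza against Ginseng had 6 members higher and 23 lower, where 29% of all genes were called higher and 27.9% lower. HSPA8 differed by -0.87 (SE 0.043, adjusted p = 4.49e-22), HSP90AA1 by -0.86 (SE 0.042) and HSPB11 by -0.79 (SE 0.074) on the log2 scale. HSPA13 was higher by 0.91 (SE 0.057), HSPA1L, at a level of few reads, by 0.74 (SE 0.29) and DNAJB4 by 0.56 (SE 0.084). Poria against Atractylodis had 7 higher and 6 lower (15.9% and 14.7% of all genes). HSP90AA1 was lower at Poria, with a log2 difference of -0.27 (SE 0.041, adjusted p = 9.78e-07), and DNAJA4, HSPB8 and DNAJB4 were highest, at 1.11 (SE 0.32), 1.01 (SE 0.36) and 0.36 (SE 0.089). Of these, DNAJA4 and HSPB8 are at a level of few reads.

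The change from Low to High was also compared between extracts. Glycyrrhiza minus Ginseng had 5 members higher and 22 lower (22.9% and 22.6% of all genes). HSP90AA1 differed most, by -0.93 (SE 0.059, adjusted p = 7.02e-18), and HSPA13 was the highest, at 0.89 (SE 0.081). Glycyrrhiza minus Poria had 4 higher and 24 lower (21.9% and 23.7% of all genes), with HSPA8 at -1.10 (SE 0.06, adjusted p = 9.09e-20). DNAJB4 was called in both extracts, and the difference between its changes, 0.12 (SE 0.12), was not. Glycyrrhiza and Poria differ in set code. Poria minus Atractylodis had 4 higher and 4 lower (10.4% and 8.6% of all genes). That count of 8 was 4 without the Poria High library numbered 1, and 5 without the Atractylodis Low library numbered 1 or the Atractylodis High library numbered 2.

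**Figure D4:**
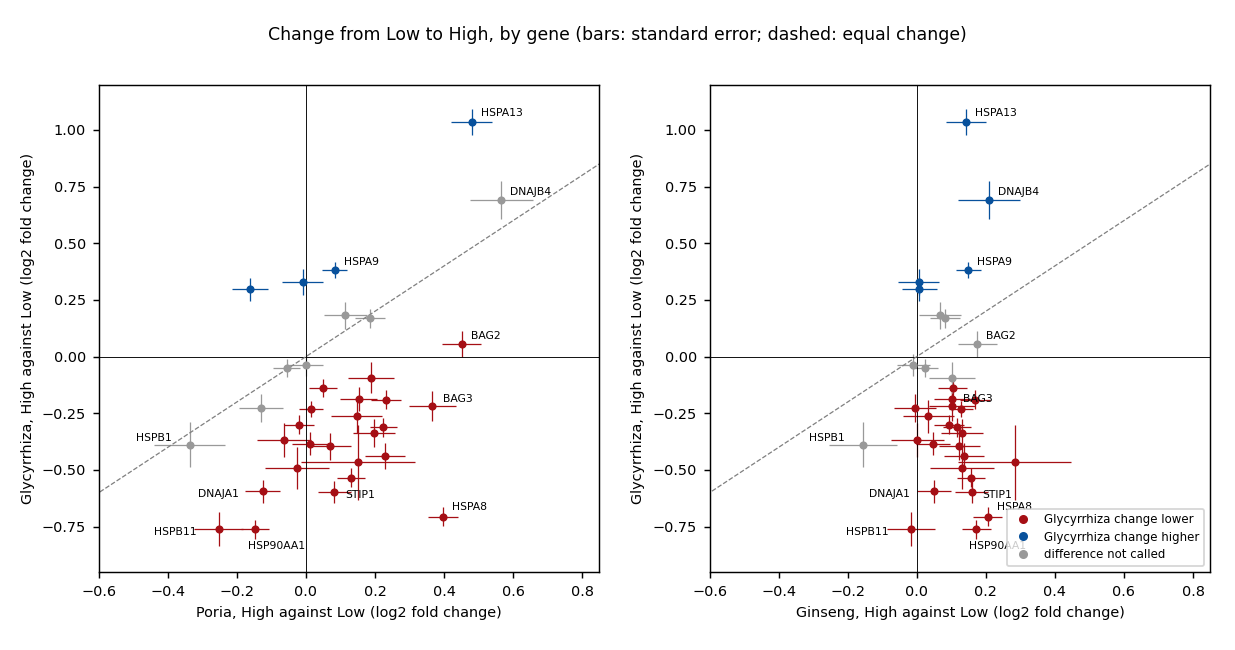
Log2 fold change from Low to High under Glycyrrhiza (y axis) against that under Poria or Ginseng (x axes) for the 34 genes with a vehicle mean of 1 CPM or more; bars are standard errors, the dashed line is equal change, and red and blue mark a called lower or higher change under Glycyrrhiza. HSPA8 lies at -0.71 under Glycyrrhiza and at 0.40 under Poria.

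Genes around the network were counted from lists outside the 38, also chosen with earlier results of these data known. TRiC, the cytosolic chaperonin that folds actin and tubulin, had 7 of 8 subunits lower and 0 higher at Glycyrrhiza High against Low, beside 27.7% of all genes lower, with a median log2 change of -0.23. CCT5 was at -0.28, CCT6A at -0.26 and CCT2 at -0.26. Under Ginseng 6 of 8 rose, beside 2.63% of all genes, and under Atractylodis 4, beside 3.4%. Under Poria 2 of 8 rose, near the 20.1% of all genes, and 0 were lower under these 3 extracts. Against Vehicle, the mean of the Low groups had 7 of 8 lower, beside 21.7% of all genes. Prefoldin, which passes chains to TRiC, had 1 of 6 higher and 2 lower under Glycyrrhiza, beside 28.6% of all genes higher and 27.7% lower.

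For the lists that follow, the shares to read against are 28.6% of all genes higher and 27.7% lower under Glycyrrhiza, and 20.1% of all genes higher and 18.4% lower under Poria, and no list is set apart from them here. Mitochondrial partners and proteases had 6 of 14 higher and 4 lower under Glycyrrhiza, with the proteases LONP1 and HTRA2 at 0.69 and 0.60 and GRPEL2, an exchange factor of mortalin, at 0.61. Under Poria 5 of 14 rose and 3 fell. Other HSP90 co-chaperones had 1 of 12 higher and 4 lower under Glycyrrhiza, against 5 and 1 under Poria. Of 24 other HSP70, J-domain, BAG and small heat shock protein genes, 21 were tested, and 4 rose and 6 fell under Glycyrrhiza. HSPA12B was at -1.29, DNAJC9, a histone co-chaperone, at -1.02 and HSPA12A at 0.96. Among 6 other heat-inducible genes 2 rose and 2 fell under Glycyrrhiza, with ZFAND2A at 0.54 and IER5 at -0.41.

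Angelica and Paeonia had a single library per dose, so their ratios have no replicate check. The median log2 ratio of High over Low was 0.044 under Angelica, with 25 of 38 above 0, and -0.12 under Paeonia, with 12 of 38 above 0. Over all genes the medians were -0.0016 and -0.0017. Under Paeonia, HSPA8 was at 1575 CPM at Low, 1484 at Medium and 1262 at High. HSP90AA1 was at 1596, 1523 and 1243 CPM, and HSPA13 at 44.7, 48.5 and 70.5 CPM. Under Angelica, HSPA8 was at 1510, 1632 and 1714 CPM. In these libraries HSPA8 was highest at Angelica High and lowest at Paeonia High.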

How the data were processed

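Expected counts per gene were deposited by the authors in 1 table. Per the submitters' processing notes, the tools included FastQC 0.11.9, Trim Galore 0.6.5, STAR 2.7.3a and RSEM 1.3.3 with GRCh38 (hg38). Per the labels, a directional kit was used. The annotation and strand setting are not given in the sources used here. Of the values above 0, 23.4% were not whole (tolerance 0.005), and all were rounded. Of 270 columns 60 matched the samples and 210 were not used. Wortmannin was not analysed here. Coordinates are from GENCODE 29 (GRCh38).

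edgeR 4.0.16 (R 4.3.3) was fitted to 54 libraries in 19 groups with TMM and filterByExpr, and the quasi-likelihood test was adjusted by Benjamini-Hochberg over 16284 genes. The SE is the log2 change over the square root of F. Libraries held 19057230 to 33233215 counts. Single-library ratios used a prior count of 2. Alternatives were RLE size factors, library sizes without mitochondrially encoded genes, no filter, DESeq2 1.42.0, only the groups compared, a replicate block, and leaving out each library.

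Members and lists were chosen with earlier results of these data known. Values by library are given for 14 genes of all roles in the comparisons where they bear on the result, and for up to 3 of the largest called rises and falls; list genes are up to 3 of the largest called changes. Promoters are from RefSeq (GRCh38.p14).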

Additional observations from a re-analysis of the deposited data

Results flagged for a closer look

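Some genes were called in opposite directions from Low to High in 2 extracts, with the difference itself called by edgeR's quasi-likelihood test. Between Glycyrrhiza, where they fell, and Ginseng, where they rose, the log2 differences were -0.93 for HSP90AA1, -0.91 for HSPA8, -0.76 for STIP1, -0.69 for HSPH1, -0.36 for HSP90AB1 and -0.36 for FKBP4. Between Glycyrrhiza, where they fell, and Poria, where they rose, they were -1.10 for HSPA8, -0.67 for CHORDC1, -0.67 for HSPH1, -0.58 for BAG3, -0.54 for HSPA4, -0.53 for AHSA1, -0.42 for FKBP4 and -0.34 for DNAJC7. DNAJA3 rose under Glycyrrhiza and fell under Poria, a difference of 0.46. HSP90AA1 fell under Poria and rose under Atractylodis, a difference of -0.30.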

How the results depend on the processing

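Over 25 comparisons and the alternatives other than leaving out a library, the count of members called stayed within 1.5 times in 140 of 150 cases. These cases include comparisons with 0 members called that stayed at 0, so 140 overstates how stable the counts with calls were. Such comparisons were SDT and PMT High against Low, SDT High against PMT High, and Medium against Low for SDT, PMT, Atractylodis and Ginseng. No called change reversed, but calls were lost. Of 339 called pairs of gene and comparison, 81 lost the call when at least 1 of the libraries was left out. With only the groups compared 58 lost it, without the filter 49, with DESeq2 3 and with RLE size factors 1. Without the filter on low counts the count became 9 for Atractylodis High against Low, 3 for Ginseng High against Low, 1 for Glycyrrhiza Medium against Low, 1 for PMT Medium against Low and 5 for Poria minus Atractylodis. With only the groups compared in the fit, which then held fewer libraries, it became 3 for Atractylodis High against Low, 8 for Poria High against Low, 1 for Poria Medium against Low, 5 for Glycyrrhiza Medium against Low and 2 for Poria minus Atractylodis. The cause was not tested otherwise. Leaving out 1 library gave 8 to 12 for Atractylodis High against Low, 3 to 8 for Ginseng High against Low, 1 to 4 for Glycyrrhiza Medium against Low, 5 to 9 for Poria Medium against Low, 4 to 9 for Poria minus Atractylodis and 11 to 17 for PMT High against Vehicle, where the lone PMT library is assumed to vary like other groups. Same-numbered libraries of a set code correlated at a mean of 0.021, and no extract had every High and Low pair over 0.1. Numbers were therefore not taken as pairs, although under Atractylodis the pairs were at 0.137, 0.125 and 0.0758. These correlations are over all genes and do not exclude pairing for single genes. In order of number, DNAJB1 was at 148, 122 and 129 CPM at Poria Low and 166, 134 and 142 at Poria High. Under Atractylodis it was at 144, 122 and 130 CPM at Low and 146, 130 and 121 at High. Pairs were not tested there, so calls and missing calls under both extracts come from a fit without pairing. With the replicate block, 339 of 339 called pairs of gene and comparison stayed called, and Atractylodis High against Low had 15 members called. That block gives each number the same effect in all set codes, so it does not test pairing within a set code.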
